A study of Mus musculus with 12 samples.

Results

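The genes described here encode the cell-cell junctions and gap junction channels of the endothelium. They were chosen by symbol for their role and matched to the Ensembl gene IDs of the count table, which gave 9 genes (Cdh5, Cldn5, Tjp1, Esam, Jam2, Jam3, Gja1, Gja4 and Gja5) of 37620. All 9 had counts and all 9 passed the filter on low counts in both comparisons between ages. Bone endothelial cells (BECs) were purified by endomucin, a sialomucin of capillary and venous endothelium, per the labels from the tibia of c57/Bl6 mice, an inbred strain, and their RNA was sequenced. Since the study's methods describe isolation from femurs as well, whether the sequenced cells came from tibiae alone was not resolved. The groups were 2-week females, 2-week males, 65-week females and 65-week males, with 3 libraries each, and no mouse carried a treatment or an allele named in the labels. Labels number the libraries of a group but do not say whether each came from a separate animal, so p-values measure the spread between these libraries, which may in part be technical.

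Endothelial cells are joined by adherens junctions, built on VE-cadherin, and by tight junctions, in which claudins seal the gap between cells and scaffold proteins tie them to actin. Members of the immunoglobulin superfamily such as ESAM and the JAM proteins sit at the same contacts and take part in leukocyte passage. Connexins form channels between neighbouring cells, and in the vessel wall connexin 37 and connexin 40 are best known from arterial endothelium, whereas connexin 43 is made by many cell types, bone-forming cells among them.

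Total counts per library ran from 26044743 to 44569600. Replicates of every group differed by more than sampling noise, by a chi-square of 26.6 to 103 for each degree of freedom. The cell type label was checked against 20 endothelial marker genes, none of them among the 9, and all 20 were detected in every group. Detection alone does not tell how pure the cells were. Their summed level was 3759 to 6352 CPM (counts divided by the total of the library) in 2-week females, 5406 to 6784 CPM in 2-week males, 366 to 459 CPM in 65-week females and 322 to 374 CPM in 65-week males. At 65 weeks, markers of osteoblasts were 30.9-fold lower, of stromal cells 6.01-fold lower and of chondrocytes 117-fold lower in summed level, with 2 of 8 chondrocyte markers at 0 in each sex. Sums of megakaryocyte markers were 9.27-fold lower, of pericyte and smooth muscle markers 8.54-fold, of arterial endothelial markers 5.09-fold and of stem and progenitor markers 2.27-fold. Markers of neutrophils were 3.76-fold higher, of plasma cells 3.44-fold, of B cells 3.11-fold and of T and NK cells 2.35-fold. Those of monocytes and macrophages were 1.41-fold higher and of erythroid cells 1.17-fold higher. Summed neutrophil markers reached 11959 to 15911 CPM in 65-week females and 17608 to 25977 CPM in 65-week males, far above the endothelial sum. At 2 weeks osteoblast markers summed to 7101 to 10379 CPM in females and 7354 to 9717 CPM in males, also above it. Other cell types thus gave much of the RNA, and sums over different genes do not give cell shares. Male 65-week replicate 3 stood apart from the other 2 libraries of its group in the sex comparisons. Without it, 830 genes were called between the sexes at 65 weeks, against 6 with it.

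The 9 genes covered a wide range of levels. They were compared as CPM per kb of exon so that transcripts of different length can be set side by side. Exon lengths came from GENCODE M39, which may not be the annotation used for the counts, so the order holds for these lengths only. At 2 weeks Cdh5 stood highest, at 135 ± 36.3 CPM per kb in females and 168 ± 19.6 CPM per kb in males (SD, n = 3 each). Cldn5, Esam, Gja1 and Tjp1 followed in that order in both sexes, and only Cldn5 and Esam in females overlapped their neighbour in the order. Gja4, Jam3, Gja5 and Jam2 came last, between 0.729 and 8.40 CPM per kb, and in males the libraries of Jam3, Gja5 and Jam2 overlapped in turn. The order was different at 65 weeks. Cldn5 then stood first, at 3.78 ± 0.423 CPM per kb in females and 5.57 ± 1.23 CPM per kb in males, and Cdh5 stood below Cldn5 and Esam, at 2.69 ± 0.570 and 2.90 ± 0.414 CPM per kb. Cldn5 and Esam overlapped in 65-week females, and Esam, Cdh5 and Tjp1 overlapped in turn in 65-week males. Jam2, the lowest of the 9 genes per kb at 2 weeks, was above Jam3, Gja5 and Gja4 in every 65-week female library. In 65-week males Jam2 overlapped Jam3. The order was not the same in CPM without length. Cldn5 had a mean of 5.36 CPM in 65-week females, below Tjp1 (14.4), Gja1 (14.3), Cdh5 (11.8) and Esam (11.4). In 65-week males it had 7.89 CPM, likewise below these genes. At 2 weeks the lowest mean in CPM was that of Gja5 (6.56 in females and 9.06 in males), not that of Jam2 (9.20 and 14.1).

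**Figure D1:**
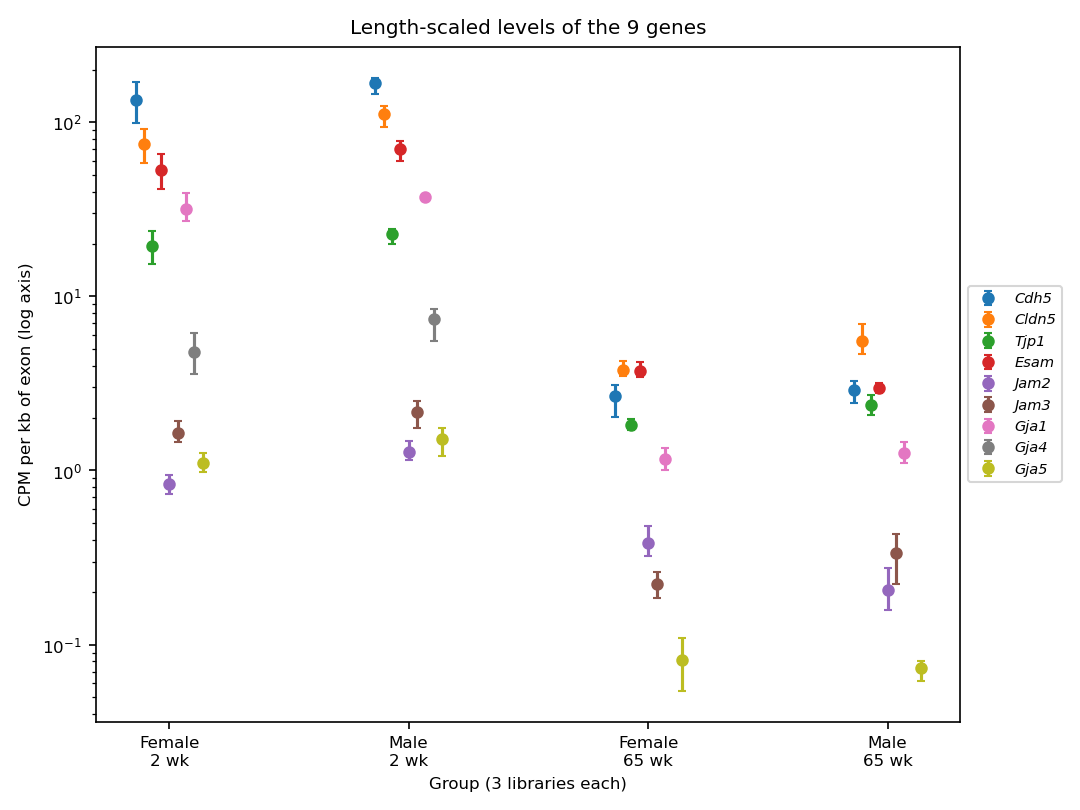
Length-scaled level (CPM per kb of exon, log axis) of the 9 genes in the 4 groups; points are means of 3 libraries and bars run from the lowest to the highest library. Cdh5 stands highest at 2 weeks (135 and 168 CPM per kb) and below Cldn5 and Esam at 65 weeks (2.69 and 2.90 CPM per kb); Gja4 is not drawn at 65 weeks, where 3 of its 6 libraries had 0 counts.

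The age comparison asked how the junction transcripts of BECs at 65 weeks stood against those at 2 weeks, within each sex. All 9 genes were lower at 65 weeks in both sexes by edgeR's quasi-likelihood test (adjusted p from 7.18e-07 to 0.00311). Of all genes tested, 29.5% were called lower in females and 28.5% in males. The median log2 fold change of the 9 genes was -3.69 in females and -4.25 in males, against 0.01 over all genes in either sex, and in the endothelial markers, 20 of 20 of which were called lower in each sex, it was -4.38 and -4.82. No library of 65 weeks overlapped one of 2 weeks for any of the 9 genes, which held for 41.6% of all genes tested in females and 39.4% in males in the direction of lower levels. In bulk samples fewer endothelial cells and less of a transcript per cell cannot be told apart, and the part of the lower endothelial, osteoblast and stromal markers in these changes was not tested. Without a scaling factor on library totals the median of all genes moved to -0.13 in females and -0.11 in males, and the 9 genes stayed lower.

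**Figure D2:**
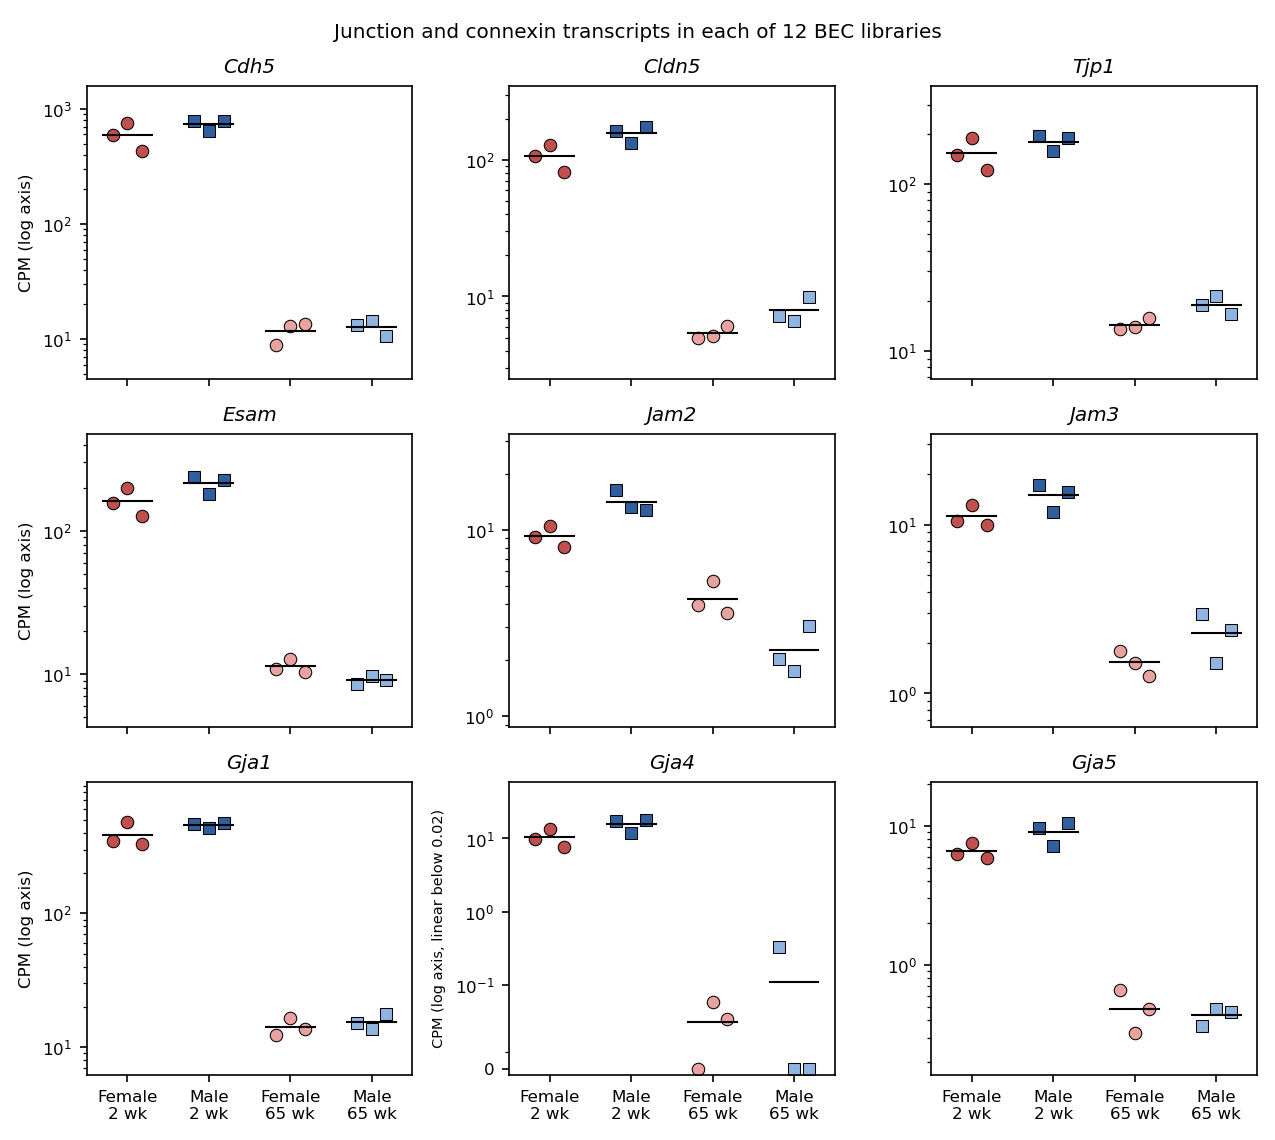
Level in CPM (log axis; for Gja4 linear below 0.02) of each of the 9 genes in the 12 libraries; each point is a library, circles are females, squares are males, and lines are group means. All 65-week libraries lie below all 2-week libraries in each panel, by the least in the panel of Jam2.

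Cdh5 (ENSMUSG00000031871, GRCm39 chr8:104828231-104871143, plus strand) encodes VE-cadherin, the adhesion molecule that holds the endothelial adherens junction together. It was measured at 590.4, 749 and 431 CPM in the 2-week female libraries and at 783, 638 and 789.6 CPM in the 2-week male libraries. At 65 weeks it was measured at 8.92, 12.97 and 13.5 CPM in females and at 13.1, 14.3 and 10.7 CPM in males. The libraries of the 2 ages were far apart, and within each age the sexes overlapped. The log2 fold change was -5.50 (SE 0.251, adjusted p = 2.57e-06) in females and -5.74 (SE 0.187, adjusted p = 1.03e-06) in males by edgeR, a level 45.3-fold lower (95% interval 30.3 to 67.7) and 53.3-fold lower (39.4 to 72.0). Emcn, the transcript of the protein used for purification, fell by 4.73 and 5.01 on the log2 scale in the same fits.

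Cldn5 (ENSMUSG00000041378, chr16:18595597-18597012, plus strand) encodes claudin-5, the main sealing claudin of endothelial tight junctions. Its levels were 107, 130 and 82.5 CPM in 2-week females and 163, 134 and 175 CPM in 2-week males. The 65-week levels were 4.92, 5.10 and 6.04 CPM in females and 7.21, 6.59 and 9.87 CPM in males. Each male group lay above the female group of its age without overlap, and both sexes were lower at 65 weeks. The fall was 18.0-fold in females (log2 fold change -4.17, SE 0.173, edgeR adjusted p = 1.86e-06) and 18.4-fold in males (-4.20, SE 0.173, adjusted p = 1.74e-06). Tjp1 (ENSMUSG00000030516, chr7:64945898-65177529, minus strand) encodes ZO-1, a scaffold that links claudins and JAM proteins to actin in endothelial and epithelial cells alike. Counts of Tjp1 gave 150.1, 188 and 121 CPM in 2-week females and 194, 158 and 188 CPM in 2-week males. They gave 13.5, 14.0 and 15.7 CPM in 65-week females and 18.8, 21.4 and 16.5 CPM in 65-week males. The level of Tjp1 was thus lower at 65 weeks by 9.68-fold in females (log2 fold change -3.27, SE 0.155, edgeR adjusted p = 2.8e-06) and by 8.75-fold in males (-3.13, SE 0.151, adjusted p = 3.52e-06).

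Among the immunoglobulin-like adhesion genes, Esam (ENSMUSG00000001946, chr9:37439344-37449615, plus strand) encodes an adhesion molecule of endothelial cells and platelets. It was found at 157, 200.6 and 127 CPM in 2-week females and at 238, 181 and 226 CPM in 2-week males. In the 65-week libraries it was found at 10.9, 12.7 and 10.4 CPM in females and at 8.53, 9.71 and 9.06 CPM in males. The male libraries reached higher than the female libraries at 2 weeks but overlapped them, and at 65 weeks every male library was below every female library. The change with age was -3.69 (SE 0.172, edgeR adjusted p = 2.67e-06) in females and -4.44 (SE 0.144, adjusted p = 1.03e-06) in males on the log2 scale. Summed markers of megakaryocytes, which make platelets, were 9.27-fold lower at 65 weeks, and their part in the change of Esam was not tested.

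Jam2 (ENSMUSG00000053062, chr16:84570764-84623269, plus strand) encodes JAM-B, an adhesion protein of endothelial contacts that binds JAM-C. It was measured at 9.09, 10.4 and 8.07 CPM in 2-week females and at 16.4, 13.2 and 12.7 CPM in 2-week males. At 65 weeks it was measured at 3.92, 5.28 and 3.58 CPM in females and at 2.01, 1.74 and 3.03 CPM in males. Males were above females at 2 weeks and below them at 65 weeks, without overlap at either age. Jam2 was lower at 65 weeks by 1.95-fold in females (95% interval 1.43 to 2.66, edgeR adjusted p = 0.00311), the smallest fold of the 9 genes in that sex, and by 5.78-fold in males (3.99 to 8.37, adjusted p = 6.69e-05). Jam3 (ENSMUSG00000031990, chr9:27005652-27066915, minus strand) encodes its binding partner JAM-C. Levels of Jam3 were 10.5, 13.1 and 9.95 CPM in 2-week females and 17.2, 11.9 and 15.6 CPM in 2-week males. They were 1.79, 1.53 and 1.26 CPM in 65-week females and 2.96, 1.52 and 2.38 CPM in 65-week males. The sexes overlapped at both ages. The fall of Jam3 was 6.66-fold in females (log2 fold change -2.74, SE 0.198, edgeR adjusted p = 1.5e-05) and 5.998-fold in males (-2.58, SE 0.275, adjusted p = 0.000155).

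The 3 connexin genes differed in how far they fell, and their promoters, from 250 bases before to 50 bases after the start in RefSeq (GRCm38.p6), are shown because these genes moved together with age but to different extents. Of the 9 genes, Cldn5, Tjp1, Gja1, Gja4 and Gja5 were matched there, and Cdh5, Esam, Jam2 and Jam3 were not. Each line runs 5′ to 3′ along the gene, and capitals mark matches, on either strand, to 4 short motifs. The letters AGGAAG are the core bound by ETS factors. The letters AGATAA are bound by GATA factors. For SOX factors either ACAATG or, as the other form, ACAAAG was searched. The letters TGAGTCA are the site of AP-1. The Gja1 promoter lies at chr10:56377050-56377349 on the plus strand, that of Gja4 at chr4:127313990-127314289 on the minus strand and that of Gja5 at chr3:97032152-97032451 on the plus strand.
Gja1: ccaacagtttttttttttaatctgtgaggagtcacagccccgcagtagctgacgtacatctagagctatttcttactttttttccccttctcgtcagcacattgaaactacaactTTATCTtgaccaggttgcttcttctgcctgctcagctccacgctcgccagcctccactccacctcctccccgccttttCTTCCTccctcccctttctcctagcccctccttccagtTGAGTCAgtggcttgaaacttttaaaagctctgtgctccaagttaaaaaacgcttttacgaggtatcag
Gja4: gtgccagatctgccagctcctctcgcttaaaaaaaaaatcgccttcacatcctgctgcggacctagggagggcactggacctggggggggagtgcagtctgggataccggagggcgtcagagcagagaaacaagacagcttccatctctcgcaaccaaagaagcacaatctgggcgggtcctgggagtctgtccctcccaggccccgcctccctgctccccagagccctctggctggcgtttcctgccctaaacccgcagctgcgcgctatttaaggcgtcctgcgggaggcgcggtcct
Gja5: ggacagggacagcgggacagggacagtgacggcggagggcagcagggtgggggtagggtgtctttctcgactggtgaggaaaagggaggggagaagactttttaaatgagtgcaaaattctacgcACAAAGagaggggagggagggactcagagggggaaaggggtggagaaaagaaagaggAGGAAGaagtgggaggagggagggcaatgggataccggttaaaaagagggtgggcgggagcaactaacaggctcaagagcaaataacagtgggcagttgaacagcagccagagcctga
Gja1 held AP-1 letters 13 to 19 bases before the start, an ETS match on the reverse strand 52 to 57 bases before it and a GATA match on the reverse strand 130 to 135 bases before it. Gja5 held an ETS match 63 to 68 bases and a SOX match 120 to 125 bases before the start. None of these letters occurred in the Gja4 window, nor in those of Cldn5 and Tjp1. Of 32851 promoters of the same length, 35.4% held the ETS letters, 11.2% the GATA letters, 28.6% the SOX letters and 5.202% the AP-1 letters. A match is a run of letters and was not tested as a binding site.

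Gja1 (ENSMUSG00000050953, GRCm39 chr10:56253241-56278609, plus strand) encodes connexin 43, the most widely made connexin. It was measured at 349, 483 and 333 CPM in 2-week females and at 463, 433 and 474 CPM in 2-week males. In 65-week libraries the level was 12.4, 16.6 and 13.8 CPM in females and 15.3, 13.6 and 17.9 CPM in males. The sexes overlapped at both ages and the ages did not. Gja1 fell in both sexes, by edgeR -4.63 (SE 0.1801, adjusted p = 1.79e-06) in females and -4.76 (SE 0.126, adjusted p = 7.18e-07) in males on the log2 scale. Summed markers of osteoblasts, which also make connexin 43, went from 7101 to 10379 CPM over the 2-week libraries to 167 to 354 CPM over the 65-week libraries, and their part in the change of Gja1 was not tested.

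Gja4 (ENSMUSG00000050234, chr4:127205214-127207851, minus strand) encodes connexin 37, a gap junction protein of arterial endothelium. It was measured at 9.94, 13.3 and 7.73 CPM in 2-week females and at 17.5, 12.02 and 18.1 CPM in 2-week males. At 65 weeks it had 0, 2 and 1 counts in the female libraries and 9, 0 and 0 counts in the male libraries. The transcript was thus at or near the detection limit in 5 of the 6 libraries. In females the summed counts, scaled to library totals, were 316-fold lower at 65 weeks (exact 95% counting interval 108 to 1534; 1128 against 3 counts). In males the edgeR log2 fold change was -6.98 (SE 0.703, adjusted p = 0.000115), a level 127-fold lower (95% interval 40.7 to 393). Without male 65-week replicate 1, which held all 9 counts, the level was at least 140-fold lower, taking 3 counts per library as the floor. That bound covers only the male 65-week libraries with 0 counts and is not one for the group. The fitted change in females, -8.03 (SE 0.467, edgeR adjusted p = 5.84e-06), moved to -8.83 without female 65-week replicate 2, and at so few counts it depends on the prior count of the fit and is no bound.

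Gja5 (ENSMUSG00000057123, chr3:96812009-96984732, plus strand) encodes connexin 40, likewise known from arterial endothelium. Its levels were 6.29, 7.51 and 5.88 CPM in 2-week females and 9.58, 7.204 and 10.4 CPM in 2-week males. The 65-week levels were 0.654, 0.323 and 0.478 CPM in females (19, 11 and 14 counts) and 0.366, 0.482 and 0.461 CPM in males (10, 13 and 12 counts). Gja5 was detected in every 65-week library, and the sexes overlapped at both ages. It was lower at 65 weeks by 12.3-fold in females (95% interval 7.84 to 19.4, edgeR adjusted p = 2.2e-05) and by 19.0-fold in males (12.6 to 28.8, adjusted p = 9.6e-06). Of 8 other arterial endothelial markers 7 were tested, of which 6 were called lower at 65 weeks in each sex (log2 fold change from -5.44 to -3.09 in females and from -6.11 to -2.64 in males) and Bmx, the gene of a kinase, was called higher (1.33 and 1.88).

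**Figure D3:**
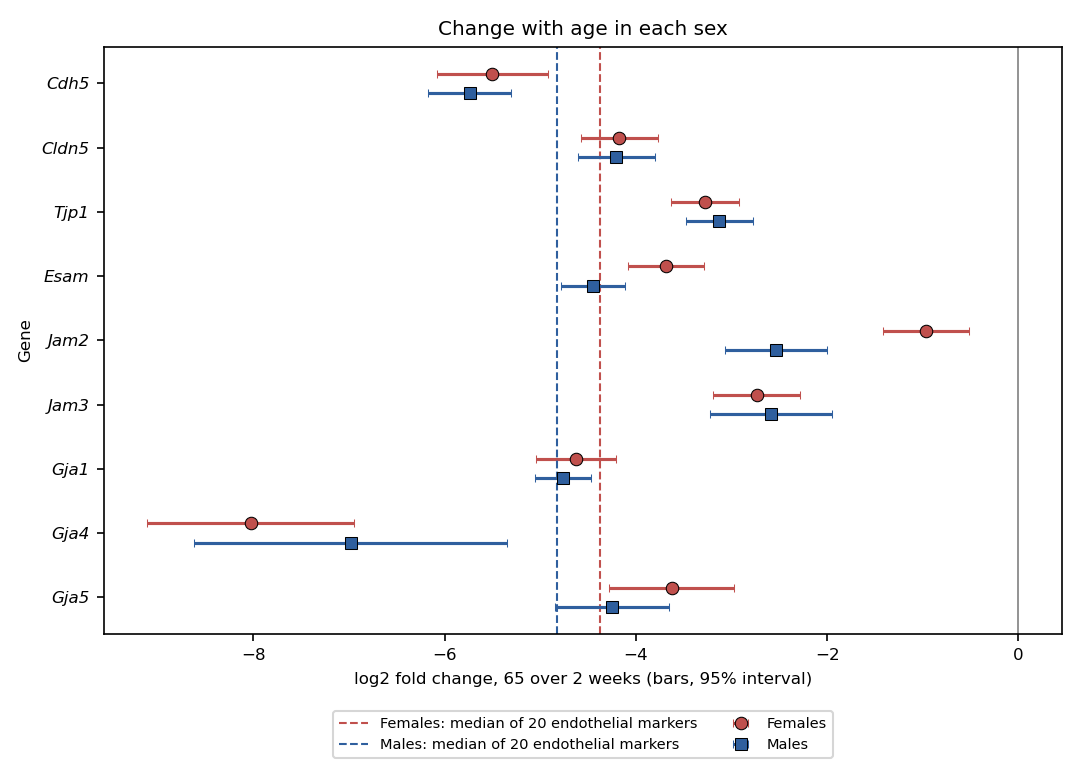
Log2 fold change from 2 to 65 weeks (edgeR) of the 9 genes in females (circles) and males (squares), with 95% intervals; dashed lines are the medians of 20 endothelial markers (-4.38 and -4.82). All 9 genes lie below 0 in both sexes, from -8.03 (Gja4) to -0.97 (Jam2) in females.

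The share of connexin 43 among the 3 connexins was compared within each library, since a share does not depend on scaling between libraries. Levels were taken per length, which gives the short Gja4 more weight than raw counts do. Gja1 made up 83.3, 84.0 and 85.5% of the summed CPM per kb of Gja1, Gja4 and Gja5 in 2-week females and 79.4, 83.9 and 79.2% in 2-week males. It made up 90.2, 94.3 and 92.1% in 65-week females and 85.3, 93.2 and 94.95% in 65-week males. Within each sex every 65-week library was above every 2-week library. The share was higher at 65 weeks by 9.11 percentage points, averaged over the sexes (exact test over 400 permutations of age within sex, two-sided, p = 0.005, the smallest they can give, adjusted p = 0.00556 over the 10 values of this family). In raw counts, where the low and short Gja4 weighs less, the difference was 1.14 points and did not pass (adjusted p = 0.08).

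The balance of the other members to Cdh5 was compared within each library. Relative to 100 Cdh5 counts, Tjp1 had 25.4, 25.2 and 28.2 counts in 2-week females and 24.8, 24.8 and 23.8 in 2-week males. Against the same 100 counts it had 151, 108 and 116 in 65-week females and 143, 150.4 and 154 in 65-week males. The 2-week libraries lay close together, and the 65-week libraries lay several times higher. Jam2 had 1.54, 1.39 and 1.87 counts per 100 Cdh5 counts in 2-week females and 2.09, 2.07 and 1.61 in 2-week males. At 65 weeks it had 44.0, 40.7 and 26.6 in females and 15.3, 12.2 and 28.3 in males. This shift of Jam2 relative to Cdh5, 3.86 on the log2 scale, exceeded those of Jam3 (2.95), Tjp1 (2.42), Gja5 (1.71), Esam (1.57), Cldn5 (1.44) and Gja1 (0.93), and each of these ratios was higher at 65 weeks by the same exact permutation test (p = 0.005 each, adjusted p = 0.00556). Differences between these shifts were not tested. In the edgeR fits only Gja4 fell further than Cdh5, so the sign of these ratios follows from the denominator they share, and they are not separate support. Gja4 alone moved the other way, by -2.39 (exact permutation p = 0.02, adjusted p = 0.02), a value that was -3.08 without male 65-week replicate 1 and -1.77 with a pseudocount of 1 count in place of 0.5.

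The direction depended on the denominator, since Cdh5 fell further than the summed endothelial markers. Relative to those markers Jam2 (2.01), Jam3 (1.10) and Tjp1 (0.58) were still higher at 65 weeks on the log2 scale, whereas Cldn5 (-0.41, exact permutation adjusted p = 0.0167), Esam (-0.28, adjusted p = 0.00714) and Gja1 (-0.92, adjusted p = 0.00714) were lower and Gja5 (-0.14, adjusted p = 0.57) did not pass. This sum weighs the abundant markers most, and these did not move alike. Pecam1 (-1.77 and -3.24) and Vwf (-1.40 and -2.17) fell less than the median marker (-4.38 in females and -4.82 in males). Of markers more abundant than these at 2 weeks, Eng (-3.45 and -3.79) also fell less and Flt4 (-5.72 and -5.09) fell more. Set beside that median, Cldn5 (-4.17 and -4.20) and Esam (-3.69 and -4.44) had the smaller fall in both sexes, so for these genes the direction depends on how the markers are summarised. Summed over all 9 genes, the ratio to the endothelial markers was lower at 65 weeks by 0.69 on the log2 scale (change -0.86 in females and -0.52 in males, exact permutation p = 0.005, adjusted p = 0.00556). With the mean of log2 levels in place of the sum, in which low genes such as Jam2 count as much as Cdh5, the ratio was higher by 0.47 (adjusted p = 0.00556).

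**Figure D4:**
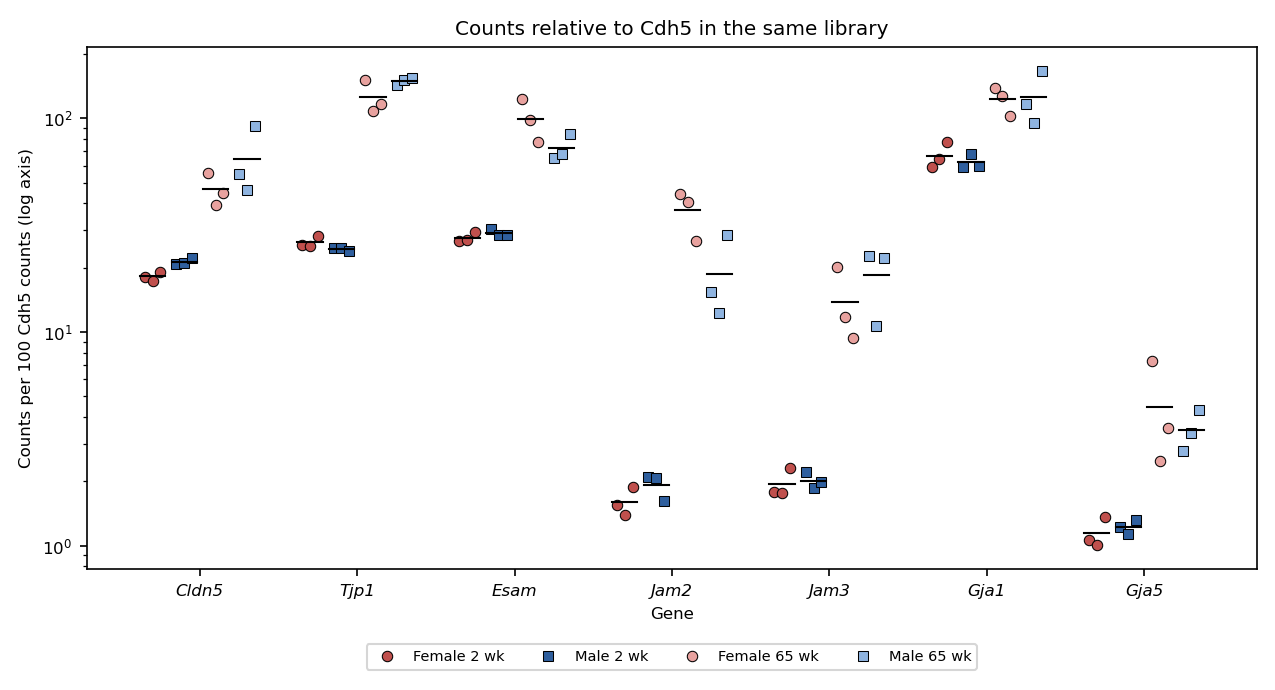
Counts per 100 Cdh5 counts (log axis) in each library for 7 of the other 8 genes; each point is a library, circles are females, squares are males, dark symbols are 2 weeks, light symbols are 65 weeks, and lines are group means. Every gene drawn lies higher at 65 weeks, most of all Jam2 (1.39 to 2.09 at 2 weeks, 12.2 to 44.0 at 65 weeks); Gja4 is not drawn because 3 libraries had 0 counts.

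Other junction genes were grouped by role and counted in the same edgeR fits. Of 13 further adherens junction genes, 12 were lower at 65 weeks in each sex, and Nectin1 was not called in either. Cdh13, which encodes T-cadherin, fell from 2244 to 6 summed counts in females, a level 314-fold lower (exact 95% counting interval 144 to 857), and its log2 fold change in males was -7.23. Nectin3, a nectin of cell contacts, changed by -4.62 and -5.52, and Ptprb, the endothelial phosphatase that acts on VE-cadherin, by -4.49 and -5.15. Of 17 further tight junction genes 14 were tested, of which 9 were lower in each sex, 4 were higher in females and 3 were higher in males. Among all genes tested, 30.2% were called higher in females and 27.0% in males. Cgnl1, a cingulin-like protein, changed by -3.48 and -3.76 and F11r, the gene of JAM-A, by -2.95 and -3.75. Cldn11 changed by -1.79 in males and was at least 11.4-fold lower in females, where 65-week libraries had 0 counts.

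Of 8 further junctional immunoglobulin and surface genes 7 were tested, of which 6 were lower in each sex and Cd47, the widely expressed signal that restrains phagocytes, was higher (0.79 and 0.82 on the log2 scale). Mcam changed by -5.39 and -4.35, Clmp by -2.81 and -2.87 and Pecam1, the gene of CD31, by -1.77 and -3.24. Of 20 further connexins and pannexins only 6 passed the filter on low counts in the age fits. Gjc1, the gene of connexin 45, was lower in both sexes (-5.32 and -3.94), as was Panx3, a pannexin of bone and cartilage cells. Panx3 was 540-fold lower in females (exact 95% counting interval 149 to 4466, with 2 counts left) and at least 127-fold lower in males. Panx2 was called higher in both sexes (edgeR adjusted p = 0.000481 and 0.000530) from very few counts. Its summed counts went from 1 at 2 weeks to 63 at 65 weeks in females, a ratio of 75.0 with an exact 95% counting interval of 12.98 to 3008, and from 6 to 56 in males, a ratio of 14.2 (6.15 to 40.5). Gjb2 (1.33, edgeR adjusted p = 0.0135) and Panx1 (0.35, adjusted p = 0.0301) were higher in females, and gave 0.54 (adjusted p = 0.422) and 0.02 (adjusted p = 0.889) in males. For neither gene was the difference between the sexes called in the interaction (adjusted p = 0.653 and 0.474).

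The sex comparison asked whether junction transcripts of male and female BECs differed at each age. At 2 weeks all 9 genes gave a log2 fold change above 0, male over female, from 0.22 (Tjp1) to 0.61 (Gja4), with a median of 0.40 against 0.01 over all genes. None passed by edgeR, where 0.0332% of all genes tested were called. At an unadjusted p under 0.05, 6 of the 9 genes passed, against 17.8% of all genes. The libraries of Cldn5 and Jam2 did not overlap, with males higher, as for 9.97% of all genes. The smallest adjusted p was that of Jam2 (0.60, SE 0.129, edgeR adjusted p = 0.213), followed by Cldn5 (0.55, SE 0.155, adjusted p = 0.215). DESeq2, which called 417 of all genes where edgeR called 5, called both (Jam2 0.60, adjusted p = 0.00696, and Cldn5 0.54, adjusted p = 0.0411). Cdh5 differed by 0.31 (95% interval -0.10 to 0.72) and Gja1 by 0.22 (-0.08 to 0.52).

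The endothelial markers can be set beside this difference. Their summed level was 3759 to 6352 CPM in 2-week females and 5406 to 6784 CPM in 2-week males, and their median log2 fold change was 0.30. Female 2-week replicate 3 was the lowest of the 6 libraries for 9 of the 9 genes and also for the summed endothelial markers, at 3759 CPM. It was also lowest for stromal (5389 CPM), pericyte and smooth muscle, chondrocyte, arterial endothelial, stem and progenitor, plasma cell, and monocyte and macrophage sums. It was not lowest for osteoblast, megakaryocyte, neutrophil, B cell, T and NK cell or erythroid sums. Neutrophil sums were 5062 to 6332 CPM in 2-week females and 4031 to 4327 CPM in 2-week males, without overlap. Over the 6 libraries of 2 weeks the SD of log2 CPM was 0.34 in the median gene, and that of the log2 ratio to the endothelial sum was 0.15. For Cdh5 the SD went from 0.34 to 0.05. All 9 genes had a smaller SD as a ratio at 2 weeks, but at 65 weeks only 2 of the 8 genes with counts in every library (Esam and Jam2) did. The spread was not computed as a ratio to the marker sums of other cell types. The part of the endothelial share, or of any other cell type, in the sex difference was not tested.

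At 65 weeks 8 of the 9 genes were tested between the sexes, since Gja4 did not pass the filter. None was called by edgeR, where 0.0420% of all genes were called. At an unadjusted p under 0.05, 3 of the 8 passed, against 10.4% of all genes. These were Cldn5 (0.54, edgeR adjusted p = 0.422) and Tjp1 (0.39, adjusted p = 0.443), both higher in males, and Jam2 (-0.94, SE 0.300, adjusted p = 0.325), lower in males. Males were above females without overlap for Cldn5 and Tjp1, as for 9.32% of all genes, and below them for Esam (-0.34, adjusted p = 0.530) and Jam2, as for 6.16%. Without male 65-week replicate 3 none was called either, with Jam2 at -1.16 (edgeR adjusted p = 0.0782), Tjp1 at 0.50 (adjusted p = 0.0740) and Cldn5 at 0.38 (adjusted p = 0.335). Cdh5 differed by 0.10 (95% interval -0.39 to 0.59), Gja1 by 0.11 (-0.26 to 0.48) and Gja5, at 10 to 19 counts per library, by -0.16 (-1.39 to 1.07). The interval of Gja5 holds the -0.94 found for Jam2, so for Gja5 a difference of that size was not excluded.

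**Figure D5:**
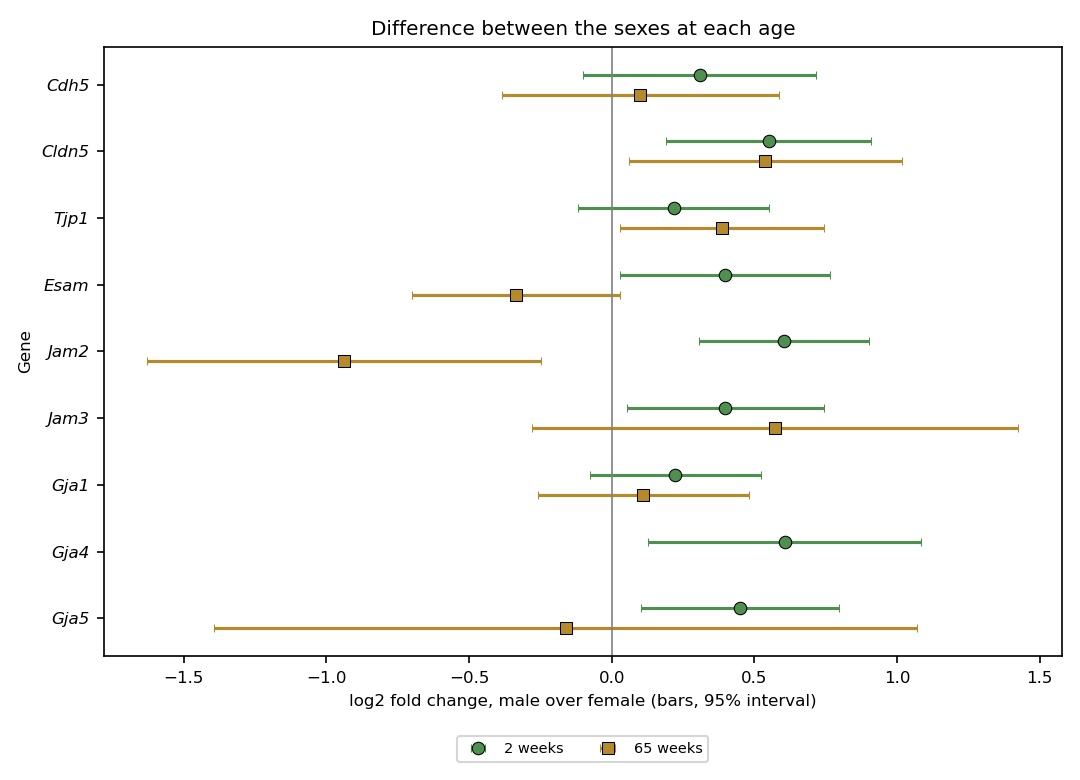
Log2 fold change of males over females (edgeR) for the 9 genes at 2 weeks (circles) and 65 weeks (squares), with 95% intervals. All 9 genes lie above 0 at 2 weeks; Jam2 goes from 0.60 at 2 weeks to -0.94 at 65 weeks, and Gja4 was not tested at 65 weeks.

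An interaction term, fitted to the 12 libraries together, tested whether females and males changed differently with age. None of the 9 genes passed by edgeR, where 0.00635% of all genes did, and 2 of the 9 passed at an unadjusted p under 0.05, against 11.9% of all genes. For Jam2 the difference in log2 change was -1.56 (SE 0.306, 95% interval -2.23 to -0.90, edgeR adjusted p = 0.119), a fall 2.95-fold deeper in males. For Esam it was -0.75 (SE 0.231, edgeR adjusted p = 0.238). The Jam2 call depended on the tool and on 1 library: DESeq2, which called 353 of all genes where edgeR called 1, gave an adjusted p of 0.000642, and without male 65-week replicate 3, the male 65-week library with the highest Jam2, edgeR gave -1.77 with an adjusted p of 0.0124 and called 750 of all genes. Over all alternatives the Jam2 value ran from -1.77 to -1.37. Of the 41 further junction genes tested for the interaction none was called by edgeR, and 6 had an unadjusted p under 0.05. Of these 6, Pecam1 (-1.47), F11r (-0.80) and Icam2 (-0.92) had the sign of Jam2, and Cldn15 (1.40), Mcam (1.04) and Cldn11, with 0 counts in 65-week females, had the opposite sign. Beside these values, 65-week females had summed endothelial markers of 366 to 459 CPM and megakaryocyte markers of 165 to 302 CPM, and 65-week males 322 to 374 CPM and 101 to 339 CPM, which overlap, whereas neutrophil markers were 11959 to 15911 CPM in 65-week females and 17608 to 25977 CPM in 65-week males. Male 65-week replicate 3 differed from replicates 1 and 2 in several sums. Its B cell markers were 1493 CPM against 484 and 374 CPM, and its neutrophil markers 17608 CPM against 25977 and 25707 CPM. Megakaryocyte markers were 101 CPM in it against 181 and 339 CPM. The part of these cell types in the Jam2 and Esam values was not tested.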

How the data were processed

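Counts per gene were deposited by the authors and were not normalised. The labels' processing notes name TopHat2, HTSeq and the mm9 build, whereas the methods of the study name STAR, featureCounts and GRCm39. Which of these made the counts was not resolved, and the use of strand is not given in the sources used here. The methods of the study name a total RNA library kit, whereas the labels name polyadenylated RNA, and which was used was not resolved. Samples were chosen for sequencing by RNA quality. Of the 37620 Ensembl IDs, 31052 (99.287% of counts) were found in GENCODE M39, from which names, exon lengths and GRCm39 coordinates were taken.

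All genes that passed filterByExpr (minimum count 10) entered the quasi-likelihood test of edgeR 4.0.16 in R 4.3.3, after TMM scaling. P-values were adjusted over all genes tested by the Benjamini-Hochberg method, with a threshold of 0.05. Ages were compared within each sex, sexes within each age, and the interaction over all 12 libraries. Ratios were taken with a pseudocount of 0.5 counts and tested by exact permutation of age within sex. CPM were computed from library totals. A count of 3 per library was the floor for folds against 0, and intervals and floors cover counting error only. As alternatives, DESeq2 1.42.0, RLE or no scaling, a looser and a stricter filter, a replicate block, a joint model of the 4 groups and the omission of single libraries were tried. The scripts were tested on simulated data.

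The 9 genes, the role and marker lists and the tests were chosen with earlier results of these data known, and the motifs after the promoters had been read. Named beyond the 9 genes were, per role list, the 3 genes called in both sexes in the same direction with the largest mean change with age and connexins and pannexins with at least 10 counts in 3 libraries. The genes with profiles nearest to Cdh5, Gja1 and Gja5, which the rule also names, are not given, since with 0.5 CPM added before the logarithm genes near 0 counts ranked among them. Emcn, Nectin1, Cd47, Bmx, Vwf, Eng, Flt4 and the genes named for their interaction were added after values were seen. Marker lists were summed as CPM. One result that this rule names is not reported here.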

Additional observations from a re-analysis of the deposited data

Results flagged for a closer look

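Jam2 was picked out because the difference between the sexes went opposite ways at the 2 ages: every male library was above every female library at 2 weeks and below every female library at 65 weeks. The interaction of sex and age was -1.56 on the log2 scale (edgeR adjusted p = 0.119), so this difference did not pass over all genes tested. No cause was tested.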

How the results depend on the processing

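Under the alternatives, all 234 results of single genes for the change with age kept direction and call (highest adjusted p 0.0126), and 9 of 9 genes were lower in each sex under every setting. DESeq2 called 2 genes between the sexes at 2 weeks and 1 in the interaction, where leaving out 1 library at a time gave 0 to 1. Changes of sign among values that were not called came from leaving out 1 library: between the sexes at 65 weeks Cdh5 ran from -0.063 to 0.23 and Gja5 from -0.39 to 0.11, and in the interaction Cldn5 ran from -0.20 to 0.13, Jam3 from -0.11 to 0.37, Tjp1 from -0.027 to 0.30 and Gja4 from -4.01 to 1.85. With endothelial markers in place of Cdh5 as denominator, the ratios of Cldn5 (-0.41), Esam (-0.28), Gja1 (-0.92) and Gja5 (-0.14) reversed, since these markers fell less than Cdh5. The ratio of the 9 genes to these markers was 0.47 by mean log2 levels, and the Gja1 share without length correction changed by 1.14 points. The cause of the other changes was not tested.

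Counts over all genes moved by over 1.5 times only in the sex comparisons and the interaction. At 2 weeks 5 genes were called between the sexes, 417 by DESeq2, 8 with all libraries in 1 model, 11 without replicate 2 of the females and 8 without replicate 3 of the males. At 65 weeks 6 were called, 361 by DESeq2, 10 on totals only, 105 with no filter, 254 with all libraries in 1 model, 830 without replicate 3 of the males and 15 without their replicate 2. In the interaction 1 was called, 353 by DESeq2, 7 with no filter, 750 without male 65-week replicate 3 and 0 to 2 without any other library. Library totals in place of TMM moved the age calls from 4568 higher and 4462 lower to 3668 and 5451 in females and from 4041 and 4257 to 3304 and 4865 in males.

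Same-numbered replicates did not deviate together (correlations from -0.355 to 0.140), so numbers were not taken as pairs. With the replicate block 8269 genes in females and 7593 in males were called with age, 9 of the 9 genes among them, and 0 genes in the interaction. Not every library correlated best with its own number. Depth limits Gja4 and Gja5 at 65 weeks, at 0 to 19 counts per library.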
